A study of Caenorhabditis elegans with 27 samples.

Results

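The comparison set untreated Caenorhabditis elegans of 11 days against untreated worms of 3 days. Its members were the 9665 probe sets, of 22548 on the Affymetrix array that were not array controls, with a deposited log2 value over 5 in at least 3 of the 6 arrays concerned. They stood for 7370 of the 17118 genes on the array, each represented below by its probe set of the highest mean. There were 3 arrays of each age among the 27 arrays of the study, which asked how humic substances, the preparation HuminFeed (HF) and its hydroquinone-enriched form (HF-HQ), alter gene expression. All worms were of strain GE24, which carries pha-1(e2123), a temperature-sensitive allele whose homozygous embryos die in the warm. Both ages of controls received no humic substance (labelled none) and were grown at 25 °C after synchronisation as filtered first-stage larvae. The design names worms of 3 days young adults and worms of 11 days older adults, whereas the age tag of every array reads fourth-stage larvae. RNA came from whole animals, so that a lower value can stand for fewer cells of a type or for less RNA in each, and these cannot be told apart.

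A hermaphrodite first makes a limited stock of sperm, then switches to oocytes, and stops laying self-fertilised eggs when the sperm is spent. Somatic ageing follows, with loss of muscle structure, a leaking or atrophied gut, accumulation of yolk in the body cavity and growth of bacteria in the lumen. The insulin-like pathway, from insulin-like peptides through the receptor DAF-2 to the transcription factor DAF-16, is the best known regulator of the rate of this decline.

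The deposited values of the ages differed in scale, with medians over the tested probe sets of 8.04 to 8.05 at 3 days and 7.84 to 7.87 at 11 days. The labels do not say whether the ages were cultured, hybridised or normalized together, and age and any such batch cannot be told apart. The 6 arrays were therefore given 1 common distribution by quantile normalization. Yolk genes mark adult hermaphrodites, and all 5 on the array lay over log2 5 at both ages. Of 10 early embryonic genes 1 did so at both ages. Of 12 moult genes 1 lay over log2 5 at 3 days and 5 did at 11 days. The first, the collagen gene col-17, was over it at both ages, and noah-1, noah-2, mlt-8 and mlt-11 were over it at 11 days only. These 5 are named because the count is small, after their values were seen. Correlations over the probe sets were 0.998 to 0.999 within an age and 0.947 to 0.948 between ages. The median SD was 0.0671 at 3 days and 0.0843 at 11 days, and the labels do not say whether triplicates were independent populations, so that p values measure a spread which may be technical.

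A second set of untreated 3-day worms was at hand, the 3 controls of the HF-HQ experiment. They carry the same labels of strain, genotype, age and temperature as the 3-day HF controls, but stood far from them for many genes. As deposited they also had another scale, with a 75th percentile of 9.35 to 9.37 against 7.52 to 7.53. Most lists and many genes below are therefore also given against these arrays, after they had been quantile normalized with the 11-day arrays. Both comparisons share the 3 arrays of 11 days and are not independent of each other. They answer whether a difference from 3-day worms depends on which 3-day worms are taken.

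Changes are differences of log2 expression, 11 days minus 3 days, with the standard error of the limma fit, and were called at a Benjamini-Hochberg adjusted p under 0.05. Called genes made up 79.4% of those tested, 5853 of 7370. Of these 3001 (40.7%) were higher and 2852 (38.7%) lower at 11 days. Changes of at least 2-fold were found for 844 higher genes (11.5%) and 1046 lower genes (14.2%). A further group of 4144 genes, 56.2%, lay within 1.5-fold. Either way, 2-fold changes came to 25.6% of genes. At the far end 78 genes were at least 16-fold higher and 109 at least 16-fold lower. Against the HF-HQ controls 76% of genes were called, 3085 higher (41.9%) and 2517 lower (34.2%), and 2-fold changes numbered 860 higher (11.7%) and 629 lower (8.53%). Since most genes were called, sizes are given with each call. The arrays of the ages did not overlap for 81.1% of probe sets. The median change of all genes was 0.01.

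The balance between higher and lower genes rests on the scaling. On values as deposited 1987 genes were higher (27%) and 4180 lower (56.7%), and the median gene fell by 0.30. In the deposited values the 18 probe sets of the spiked hybridization controls changed by -0.36 to 0.45. Counts on the deposited values are given for the lists counted below whose balance they turn or level. Other list counts can also move with the scaling.

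**Figure D1:**
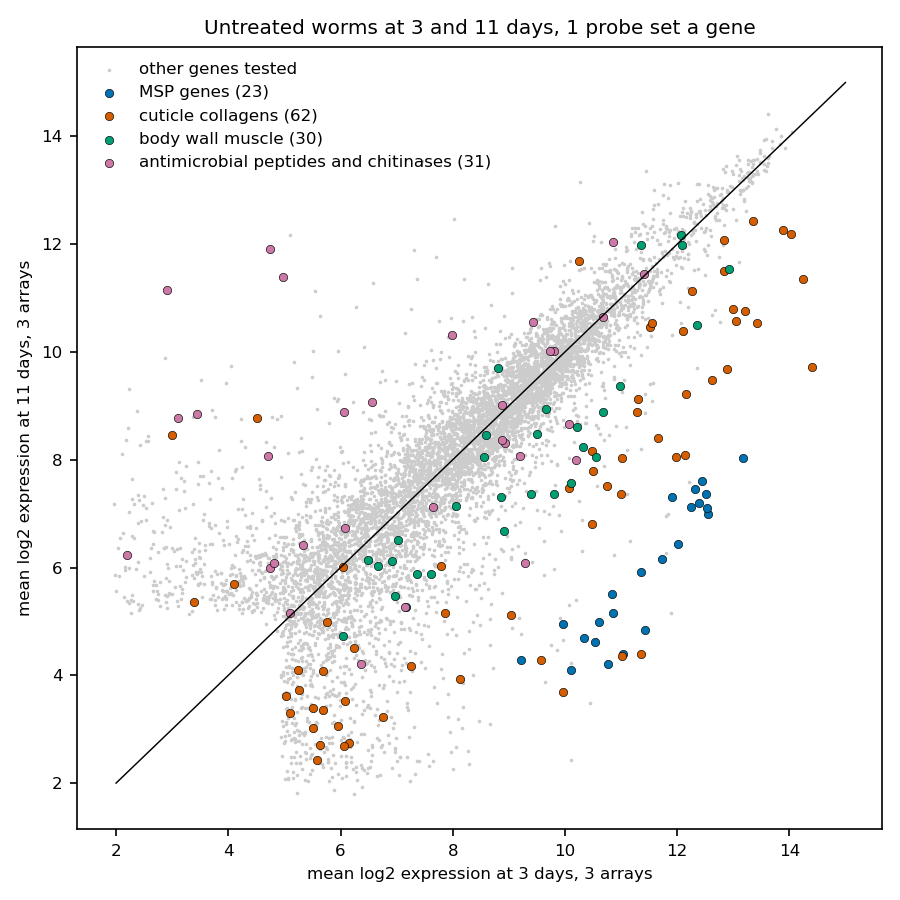
Mean log2 expression at 11 days against that at 3 days in untreated worms, 1 point for each of 7370 genes, each a mean of 3 arrays. The 23 MSP genes and most cuticle collagens lie below the line of equality, the body wall muscle genes mostly below it, and abf-2, cht-1 and cnc-7 stand at the upper left; the empty corner at the lower left is the filter at log2 5.

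Sperm genes fell together. Major sperm protein (MSP) is both the cytoskeletal protein on which nematode sperm crawl and the signal by which sperm start oocyte maturation. For msp-45 the 3 arrays of 3 days read 11.15, 10.98 and 11.00 and those of 11 days 4.54, 4.28 and 4.37. The ages lay more than 6 log2 units apart, a change of -6.65 ± 0.08 (adjusted p = 2.2e-10). For msp-152 the values were 11.52, 11.30 and 11.45 against 5.25, 4.61 and 4.66, a change of -6.59 ± 0.16. Changes of -6.56 ± 0.09 for msp-50, -6.02 ± 0.14 for msp-74 and -5.91 ± 0.10 for msp-63 were alike. All 23 MSP genes on the array were tested and all fell, by -6.65 to -4.61 with a median of -5.45, while the median of all genes was 0.01. Of the 23 genes, 6 passed the filter through the 3-day arrays only and so had to be lower. These genes are near-identical copies, so that their probe sets share signal and are not 23 separate measurements.

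Sperm genes outside the family moved alike in these arrays. The peptide gene nspd-4 read 10.13, 10.09 and 10.11 at 3 days and 4.50, 4.08 and 4.10 at 11 days, a fall by 5.88 ± 0.11 on the log2 scale. The sperm-specific gene ssp-35 changed by -4.71 ± 0.05, and spe-11, whose product sperm bring into the egg, by -2.48 ± 0.08. Without a filter, 40 of the 58 genes of this list on the array were lower, 24 of them at least 2-fold, and 7 were higher. The same fit called 29.8% of all 17118 genes lower and 8.62% at least 2-fold lower. Of 25 genes that were tested, 17 passed through the 3-day arrays only. Outside the sperm lists, cyc-2.2, a cytochrome c gene, fell from 7.13, 7.07 and 6.99 to 2.46, 2.50 and 2.51. F27C1.1 and F58A6.9, which have no role given here, fell by 5.94 ± 0.05 and 6.95 ± 0.08 on the log2 scale.

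The fall was not found with the other 3-day worms. With all 27 arrays normalized together, msp-45 stood at 11.63 ± 0.10 (SD, n = 3) in the HF controls of 3 days, at 4.92 ± 0.18 in the HF-HQ controls of 3 days and at 4.89 ± 0.16 in the controls of 11 days. The 3-day HF-HQ arrays thus overlapped those of 11 days and lay far below the other 3-day arrays. Its change against the HF-HQ controls was -0.03 ± 0.12 (adjusted p = 0.84). Over the 23 MSP genes the median against the HF-HQ controls was -0.06, with 4 genes higher and 7 lower, and over the other sperm genes it was -0.01. Single copies went the other way, such as msp-50 with 1.07 ± 0.12 and msp-74 with 0.92 ± 0.21. F27C1.1 and cyc-2.2 changed by -0.03 ± 0.05 and -0.02 ± 0.05 in that comparison, neither called.

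Genes of oocytes and of the dividing germ line were slightly higher at 11 days. The oocyte growth regulator lin-41 read 7.76, 7.74 and 7.76 at 3 days and 9.00, 9.05 and 8.96 at 11 days, a rise of 1.25 ± 0.05 (adjusted p = 1.4e-07). The zygotic polarity gene mex-6 rose by 1.23 ± 0.05, the germ cell fate regulator fog-1 by 1.02 ± 0.10 and the RNA-binding gene puf-7 by 1.01 ± 0.08. Of 42 genes of the list tested, 31 rose, 3 fell and 8 did not pass, with a median of 0.37. On deposited values the same genes split into 14 higher and 14 lower with a median of 0.03, so that the direction of the list depends on the scaling. Against the HF-HQ controls 6 were higher and 28 lower, with a median of -0.32. Values for lin-41 and mex-6 remained higher there, at 0.42 ± 0.05 and 0.50 ± 0.07, whereas puf-7 gave -0.07 ± 0.05.

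DNA replication and cell cycle genes followed the same course. Of 70 tested, 53 rose and 7 fell, with a median of 0.44. The licensing factor cdt-1 rose by 2.11 ± 0.18, the phosphatase cdc-25.2 by 1.48 ± 0.05, the condensin subunit mix-1 by 1.42 ± 0.07 and topoisomerase top-2 by 1.40 ± 0.14. The counts were 30 higher and 24 lower on deposited values, and 22 higher and 24 lower against the HF-HQ controls. There top-2 fell by 0.85 ± 0.10, while cdc-25.2 (-0.02 ± 0.06), mix-1 (0.17 ± 0.08) and cdt-1 (1.01 ± 0.44) were not called. Of 42 Argonaute and small RNA genes 22 rose and 3 fell, with a median of 0.22. The nuclear Argonaute hrde-1, which carries silencing between generations, read 8.26, 8.39 and 8.31 against 9.86, 9.90 and 9.91. It rose by 1.57 ± 0.06, and by 0.92 ± 0.11 against the HF-HQ controls. Its somatic relative nrde-3 rose by 1.38 ± 0.08, ergo-1 by 1.28 ± 0.07 and the Tudor protein gene eri-5 by 2.18 ± 0.06. The deposited values gave 14 higher and 15 lower for this list, and the HF-HQ controls 20 and 11. There nrde-3 rose by 0.46 ± 0.12, ergo-1 by 0.23 ± 0.09 and eri-5 by 0.82 ± 0.06.

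The linker histone genes had the steepest rises of the histone list. his-24 read 5.65, 5.48 and 5.50 at 3 days and 10.98, 11.26 and 11.15 at 11 days, a change of 5.59 ± 0.08. hil-7 rose by 4.65 ± 0.07, hil-3 by 4.06 ± 0.06 and hil-1 by 2.74 ± 0.09. The arrays of the ages were far apart for each of the 4 genes. Over the whole list, of 29 histone genes tested 15 rose and 8 fell, with a median of 0.20, and many share probe signal. On deposited values 8 were higher and 12 lower, and against the HF-HQ controls 10 and 12, with medians of -0.03 and -0.04. Only a small part of these rises was seen against the HF-HQ controls, with 0.97 ± 0.09 for his-24, 0.29 ± 0.09 for hil-7 and 0.56 ± 0.06 for hil-3, while hil-1 rose by 3.33 ± 0.05.

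Genes first switched on in embryos gave a mixed picture. sdz-28 read 3.65, 3.72 and 3.65 at 3 days and 7.18, 7.25 and 7.41 at 11 days, and sdz-25 rose by 3.24 ± 0.17. Of 65 such genes on the array, 17 were tested, and 6 of these passed through the 11-day arrays only. Of the 17 genes 11 rose and 4 fell, but against the HF-HQ controls 7 were higher and 7 lower, with a median of -0.09. The GATA factor elt-6 rose by 3.16 ± 0.08, and by 2.66 ± 0.12 against the HF-HQ controls. In the latter comparison sdz-28 fell by 0.60 ± 0.08 and sdz-25 gave -0.13 ± 0.18.

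Yolk genes stayed among the highest values of the array. vit-2 read 12.97, 13.12 and 13.06 at 3 days and 12.36, 12.47 and 12.49 at 11 days, a fall by 0.61 ± 0.06. vit-1 fell further, from 11.54, 11.68 and 11.51 to 9.19, 9.46 and 9.59, by 2.16 ± 0.10. vit-4 and vit-6 did not pass, with changes of 0.04 ± 0.05 and -0.08 ± 0.06. Other probe sets disagreed, with -2.36 for vit-4 and 0.20 (called) for vit-6. vit-5 had a change of 0.15 ± 0.06, a call lost without array 1 or 2 of 3 days (0.16 and 0.14) and without array 2 or 3 of 11 days (0.15 and 0.12). On deposited values all 5 genes were lower, with a median of -0.73. With the HF-HQ controls vit-1 fell by 3.42 ± 0.10 and vit-2 by 1.38 ± 0.06. The eggshell genes perm-2 and perm-4, which make its permeability barrier layer, rose by 1.13 ± 0.07 and 1.17 ± 0.06. With the HF-HQ controls they gave 0.32 ± 0.05 and 0.31 ± 0.06. Of 17 eggshell and egg activation genes tested 9 rose and 3 fell, with a median of 0.18. On deposited values 3 were higher and 11 lower, with a median of -0.44, and against the HF-HQ controls 7 and 4.

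**Figure D2:**
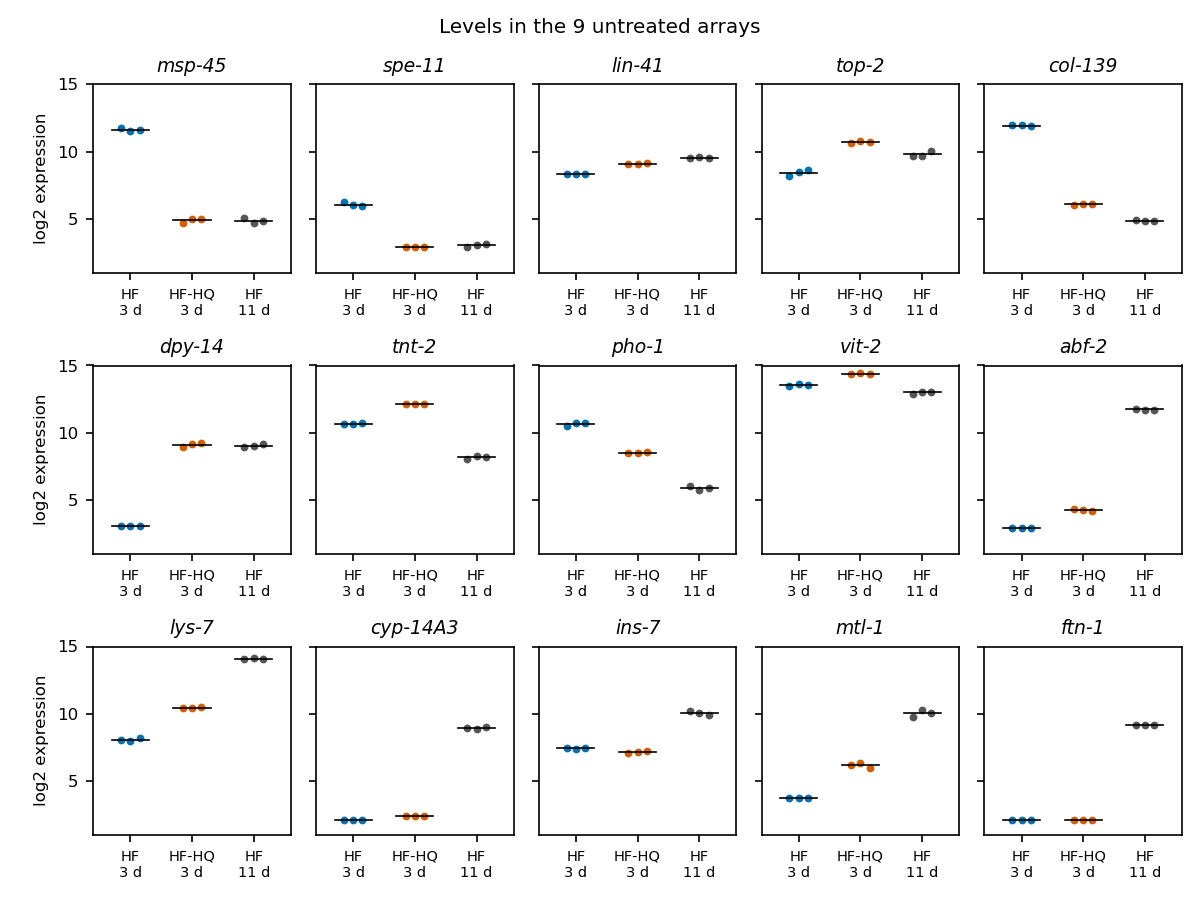
Log2 expression of 15 genes in the 9 untreated arrays, quantile normalized with all 27 arrays; each point is an array and each bar the mean of 3. msp-45, spe-11 and dpy-14 have the HF-HQ controls of 3 days at the level of 11 days, tnt-2 and pho-1 have both 3-day groups above 11 days, and abf-2, cyp-14A3, ins-7 and ftn-1 have both 3-day groups below it.

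Cuticle collagens, the structural proteins that the skin secretes at each moult, fell in large number. col-139 read 11.38, 11.38 and 11.31 at 3 days and 4.44, 4.36 and 4.41 at 11 days, a change of -6.95 ± 0.05 (adjusted p = 7.6e-11). col-129 fell from 11.02, 10.99 and 11.03 to 4.23, 4.38 and 4.45, and col-81 from 9.96, 9.96 and 9.95 to 3.59, 3.80 and 3.67. No array of one age came near those of the other. Without a filter, 107 of the 145 collagen genes on the array were lower, 70 of them at least 2-fold, and 17 were higher. Among the 62 that were tested 56 fell, 53 at least 2-fold, and the median was -2.48, with 22 of the 62 passing through the 3-day arrays only. The 5 genes that rose did so at least 2-fold, but 4 of the 62 passed through the 11-day arrays only and so had to be higher. Under log2 5 in each 3-day array, dpy-14, a collagen of early stages, rose from 3.03, 2.99 and 2.98 to 8.36, 8.42 and 8.57.

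The fall of collagens was smaller but still present with the other 3-day worms. Against the HF-HQ controls 49 of the 62 genes were lower and 7 higher, with a median of -1.48. col-139 fell there by 1.28 ± 0.05 and col-81 by 1.34 ± 0.09. For col-129 and dpy-14 the HF-HQ controls stood near the 11-day level, with changes of 0.48 ± 0.08 and -0.08 ± 0.09.

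Other genes of the apical matrix went both ways. noah-1 and noah-2, which encode zona pellucida domain proteins of the sheath under the cuticle, rose by 5.21 ± 0.06 and 4.34 ± 0.08. The hedgehog-related gene wrt-10 rose by 4.21 ± 0.09 and grd-10 fell by 4.38 ± 0.07. Of 22 such genes tested 12 rose and 8 fell, and 7 had passed through the 11-day arrays only. Directions held against the HF-HQ controls for these 4 genes, at 1.25 ± 0.07, 1.02 ± 0.09, 1.76 ± 0.09 and -2.22 ± 0.10. A second probe set of noah-1 rose by 4.56 ± 0.12 but gave 0.34 ± 0.15 there, not called. The list as a whole split there into 10 higher and 10 lower. In the basement membrane, fibulin gene fbl-1 fell by 3.00 ± 0.05, perlecan gene unc-52 by 2.88 ± 0.22 and papilin gene mig-6 by 1.62 ± 0.09. Each of the 3 also fell against the HF-HQ controls, by 2.16 ± 0.05, 2.48 ± 0.30 and 2.94 ± 0.11. The dystroglycan gene dgn-1 rose by 2.92 ± 0.17, but gave 0.42 ± 0.17 with the HF-HQ controls, which was not called.

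Body wall muscle genes with a probe set of their own fell nearly throughout. The troponin T gene tnt-2 read 10.11, 10.06 and 10.14 at 3 days and 7.43, 7.64 and 7.62 at 11 days, a change of -2.54 ± 0.07 (adjusted p = 1.1e-08). The myosin light chain gene mlc-1 fell by 2.50 ± 0.09, a second troponin T gene mup-2 by 2.44 ± 0.05 and dim-1, whose product stabilises the filament lattice, by 2.24 ± 0.05. Of 30 muscle genes tested, 26 fell and 2 rose, with a median of -1.44, and 18 fell at least 2-fold. Of these 30, 29 passed the filter at both ages. The same direction was found against the HF-HQ controls, with 22 lower, 3 higher and a median of -1.02. In that comparison tnt-2 fell by 3.81 ± 0.06, mlc-1 by 1.63 ± 0.09, mup-2 by 2.30 ± 0.05 and dim-1 by 2.35 ± 0.05. Of 4 probe sets shared by several muscle genes, 1 was called in the main comparison, that of mlc-1 and mlc-2, with -1.98 ± 0.05. Those of the actin genes act-1 to act-4, at a level near 13, were not called, with 0.06 to 0.11.

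Intestinal genes fell for the most part. The brush border acid phosphatase gene pho-1 read 9.94, 10.14 and 10.13 at 3 days and 5.44, 5.17 and 5.28 at 11 days, a change of -4.78 ± 0.09. The water channel gene aqp-4 fell by 4.55 ± 0.05 and the peptide transporter gene pept-1 by 4.12 ± 0.06. Of 22 genes tested 18 fell, 13 of them at least 2-fold, and 4 rose, with a median of -1.45, and 7 had passed through the 3-day arrays only. Against the HF-HQ controls 17 fell and 4 rose, with pho-1 at -2.69 ± 0.08, aqp-4 at -4.37 ± 0.08 and pept-1 at -2.07 ± 0.06. The GATA factor elt-2, which specifies the gut, went from 5.84, 5.60 and 5.81 to 4.21, 4.36 and 4.59, a fall by 1.37 ± 0.11, but was 1.13 ± 0.13 higher than in the HF-HQ controls. Its second probe set fell by 1.47 ± 0.07 and gave -0.21 ± 0.09 there, not called. The ferritin gene ftn-1, which stores iron in the gut, was the exception with the steepest rise. It read 2.22 in each array of 3 days and 8.61, 8.57 and 8.61 at 11 days, and its change was 6.38 ± 0.05, and 7.38 ± 0.05 against the HF-HQ controls.

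Nuclear hormone receptors moved in both directions. nhr-114 went from 6.53, 6.73 and 6.68 to 2.11, 2.12 and 2.13, and nhr-68 fell by 2.49 ± 0.06. Both fell against the HF-HQ controls as well, by 5.22 ± 0.08 and 2.31 ± 0.06. nhr-11 rose by 3.12 ± 0.06, and by 4.25 ± 0.05 in that comparison. Of 46 receptors tested, of 255 on the array, 14 rose and 22 fell, and with the HF-HQ controls 20 and 19. On deposited values 10 were higher and 25 lower. Of the 46, 11 passed through the 3-day arrays only and 3 through the 11-day arrays only, which set their direction. The share of receptors called, 78.3%, was near the 79.4% of all genes. Without a filter 61 of the 255 were higher and 60 lower, where 30.8% of all genes were higher and 29.8% lower. Neuronal genes were mostly below the filter, since 12 of 55 synaptic genes were tested. The dopamine and serotonin synthesis gene bas-1 fell by 2.52 ± 0.09 and the synaptobrevin gene snb-1 rose by 1.26 ± 0.06, against -0.60 ± 0.10 and 0.11 ± 0.07 with the HF-HQ controls. The neuropeptide-like gene nlp-39 read 2.57 in each array of 3 days and 8.44, 8.36 and 8.53 at 11 days, and its rise of 5.87 ± 0.06 stood at 6.67 ± 0.06 with the HF-HQ controls.

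**Figure D3:**
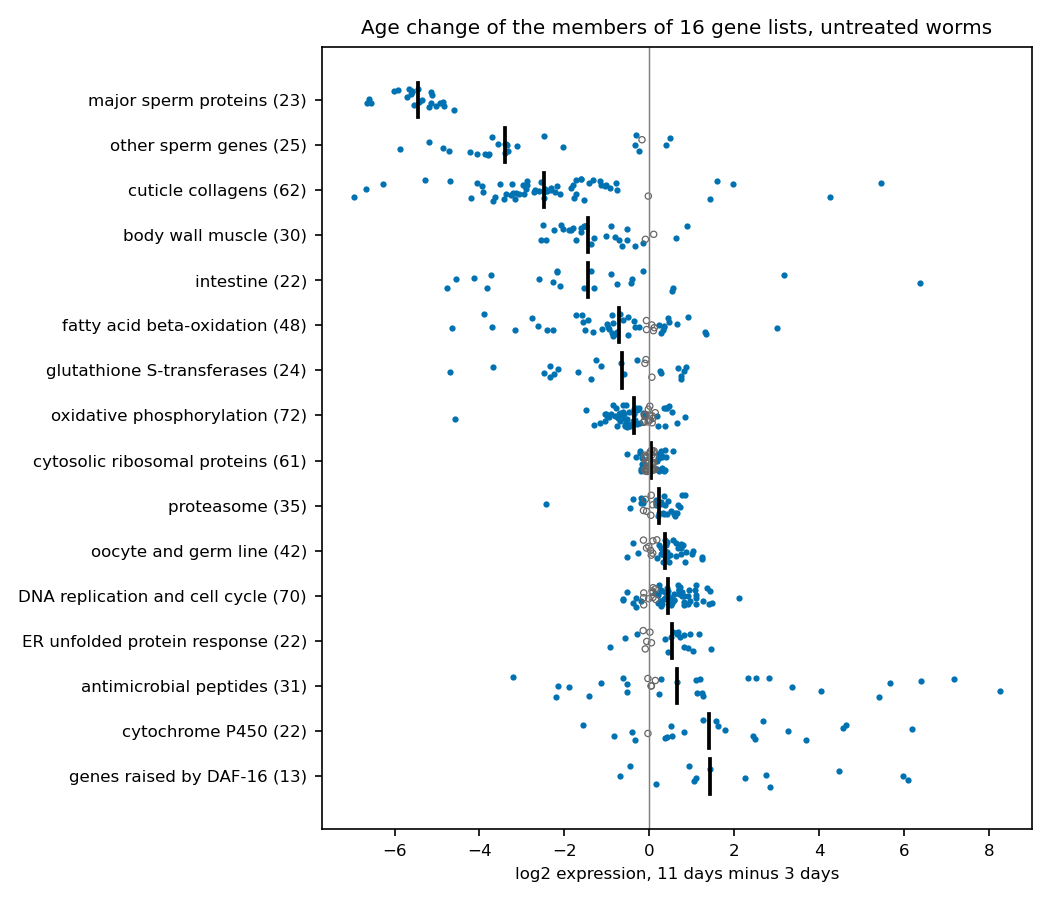
Log2 change from 3 to 11 days of the tested members of 16 gene lists, with the number of members in brackets. Filled points are called genes, open points are genes not called and the bar is the median, which runs from -5.45 for the MSP genes to 1.42 for genes raised by DAF-16.

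Innate immune genes included the steepest rise of all genes tested. abf-2, a defensin-like antibacterial factor, read 2.91, 2.91 and 2.90 at 3 days and 11.17, 11.14 and 11.14 at 11 days. Its change of 8.24 ± 0.05 (adjusted p = 5.1e-11) came to 303-fold. Values near the 25th percentile of the arrays, 2.40, lie at the bottom of the scale, and folds against them rest on that floor. The chitinase gene cht-1 rose from 4.61, 4.81 and 4.83 to 11.87, 11.91 and 11.96, and the caenacin gene cnc-7 from 4.87, 4.99 and 5.08 to 11.49, 11.33 and 11.34. cnc-4 rose by 5.67 ± 0.10. All 4 rose against the HF-HQ controls too, by 7.49 ± 0.05, 2.31 ± 0.05, 3.99 ± 0.09 and 3.32 ± 0.12. Of 31 antimicrobial peptide and chitinase genes tested, of 58 on the array, 18 rose and 9 fell, with a median of 0.65. Of the 31, 7 passed through the 11-day arrays only and 1 through the 3-day arrays only. With the HF-HQ controls 20 rose and 7 fell. Without a filter 29 of the 58 were higher and 11 lower, and 20 were at least 2-fold higher where 7.07% of all genes on the array were.

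Lysozymes divided into rising and falling members. lys-7, a DAF-16 dependent lysozyme, read 7.39, 7.35 and 7.62 at 3 days and 13.55, 13.57 and 13.51 at 11 days, a change of 6.09 ± 0.08. ilys-3 rose by 4.05 ± 0.09 and ilys-2 by 3.95 ± 0.12, while lys-6 fell by 4.80 ± 0.07. These directions stood against the HF-HQ controls, with 3.54 ± 0.06, 7.28 ± 0.06, 2.67 ± 0.18 and -0.72 ± 0.13. Over 13 lysozymes tested, 4 rose and 8 fell in the main comparison, while 9 were higher and 1 lower than in the HF-HQ controls. Infection response genes irg-5 and irg-2 rose by 4.42 ± 0.06 and 4.39 ± 0.11, and C17H12.8 fell from 11.13, 11.24 and 11.13 to 6.40, 6.49 and 6.61. These 3 gave 3.64 ± 0.11, 4.84 ± 0.13 and -3.50 ± 0.07 against the HF-HQ controls. irg-5 and irg-2 passed the filter through the 11-day arrays only, as did ilys-2, and so had to be higher. Of 16 infection response genes tested 10 rose and 5 fell, with 7 higher and 6 lower on deposited values.

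C-type lectin-like genes, many of them secreted by the gut on contact with bacteria, gave the steepest fall of all genes tested. clec-70 read 10.15, 10.14 and 10.05 at 3 days and 2.45, 2.41 and 2.42 at 11 days, a change of -7.69 ± 0.05. clec-47 fell from 11.88, 11.88 and 11.92 to 5.46, 4.96 and 5.03. In the other direction clec-266 rose by 7.07 ± 0.08 and clec-174 by 5.69 ± 0.07. Of 43 genes tested, of 220 on the array, 17 rose and 24 fell (12 and 28 on deposited values). Of the 43, 10 passed through the 3-day arrays only and 4 through the 11-day arrays only, which set their direction. The fall of clec-70 depended on the 3-day worms, with 0.32 ± 0.05 against the HF-HQ controls. The other 3 genes kept their direction with -1.63 ± 0.14 for clec-47, 2.80 ± 0.10 for clec-266 and 4.96 ± 0.22 for clec-174.

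Lysosomal and digestive proteases also exchanged members. The aspartyl protease gene asp-17 read 2.86, 2.85 and 2.90 at 3 days and 9.86, 9.92 and 9.87 at 11 days, a rise of 7.01 ± 0.05, and by 3.52 ± 0.06 against the HF-HQ controls. asp-12 fell from 11.83, 11.78 and 11.88 to 6.98, 6.77 and 7.21, but was 1.65 ± 0.17 higher than in the HF-HQ controls. Among cathepsin B-like genes cpr-2 rose by 4.51 ± 0.11 and cpr-8 fell by 3.89 ± 0.10. Both kept their direction against the HF-HQ controls (5.52 ± 0.11 and -2.77 ± 0.06). asp-17 and cpr-2 passed the filter through the 11-day arrays only and cpr-8 through the 3-day arrays only, which set their direction. Of 21 cathepsin and aspartyl protease genes tested 7 rose and 11 fell. Against the HF-HQ controls 14 were higher and 5 lower.

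Few insulin-like peptides passed the filter. Without it 9 of the 24 on the array were higher and 5 lower, where 30.8% of all genes were higher and 29.8% lower. ins-7, an agonist of DAF-2 that DAF-16 represses, read 6.80, 6.75 and 6.81 at 3 days and 9.62, 9.49 and 9.32 at 11 days. It rose by 2.69 ± 0.08, and by 2.81 ± 0.08 against the HF-HQ controls. ins-2 rose from 2.42, 2.42 and 2.43 to 8.25, 8.24 and 8.33, and ins-34 by 2.22 ± 0.05. These were the 3 tested genes of 24 on the array, and ins-2 and ins-34 passed through the 11-day arrays only, so that they had to be higher. The transcript of daf-16 itself did not pass on its probe set of the highest mean, with 0.12 ± 0.07. Its other probe sets were called in opposite directions, at 0.24 and -0.27. The kinase gene sgk-1 fell by 1.05 ± 0.07 but was 1.14 ± 0.12 above the HF-HQ controls. skn-1, which drives the response to oxidants, rose by 0.71 ± 0.09, and by 0.37 and 0.44 on its other probe sets. These 3 probe sets of skn-1 disagreed against the HF-HQ controls, with 0.34 ± 0.09, -0.84 ± 0.18 and 0.12 ± 0.11.

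Targets known to be raised by DAF-16 were mostly higher, whereas the classical target sod-3 was nearly level. mtl-1, a metallothionein gene, read 3.51, 3.51 and 3.53 at 3 days and 9.21, 9.72 and 9.52 at 11 days. Its change was 5.97 ± 0.12, and 3.82 ± 0.14 against the HF-HQ controls. The noncoding RNA tts-1 rose by 4.45 ± 0.06 and the desaturase gene fat-5 by 2.84 ± 0.07, with 2.83 ± 0.07 and 1.25 ± 0.07 against the HF-HQ controls. Of 13 genes tested 11 rose and 2 fell, with a median of 1.42, and the HF-HQ controls gave 10 and 2 with a median of 1.25. Of the 13, 2 passed through the 11-day arrays only. sod-3, a mitochondrial superoxide dismutase gene, had a change of 0.15 ± 0.06 (adjusted p = 0.049). That call was lost without any 1 array other than array 1 of 3 days, with values of 0.10 to 0.18, and against the HF-HQ controls sod-3 rose by 1.54 ± 0.05. Genes known to be lowered by DAF-16 did not move one way, with 7 of 11 higher and 4 lower (5 and 5 on deposited values). Among these dod-24 fell by 2.73 ± 0.06 but was 0.93 ± 0.07 higher than in the HF-HQ controls.

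Stress and protein quality control genes went both ways. The small heat shock genes hsp-16.41 and hsp-16.2 rose by 2.62 ± 0.13 and 1.52 ± 0.08. In the 11-day arrays hsp-16.41 read 5.21, 5.60 and 5.67 and hsp-16.2 read 5.58, 5.34 and 5.31. Both genes passed the filter through the 11-day arrays only and so had to be higher. Both were also higher than in the HF-HQ controls, by 2.02 ± 0.13 and 1.35 ± 0.13. Probe sets shared by several heat shock genes rose too, by 3.60 ± 0.14 and 3.70 ± 0.09 for the pair F44E5.5 and F44E5.4, by 1.82 ± 0.11 for hsp-16.49 and hsp-16.48 and by 1.72 ± 0.09 for hsp-16.11 and hsp-16.1. These are named after their values were seen. hsp-12.1 fell by 2.32 ± 0.09, and hsp-12.3 by 1.54 ± 0.07, although the latter was 2.11 ± 0.08 higher than in the HF-HQ controls. hsp-12.1 passed through the 3-day arrays only and so had to be lower. Of 17 heat shock genes tested 8 rose and 6 fell, with 4 higher and 10 lower on deposited values. Of 22 genes of the unfolded protein response of the endoplasmic reticulum 14 rose and 3 fell, with a median of 0.54. They split into 11 higher and 8 lower on deposited values, and 2 higher and 12 lower against the HF-HQ controls. Its sensor gene atf-6 rose by 1.17 ± 0.07, the calreticulin gene crt-1 by 1.03 ± 0.07 and dnj-7 by 1.46 ± 0.10. The BiP chaperone gene hsp-4, the usual reporter of this response, did not pass, with -0.06 ± 0.08. Only crt-1 of these was higher than in the HF-HQ controls, by 0.35 ± 0.05, with -0.10 ± 0.08 for atf-6, -0.82 ± 0.09 for dnj-7 and -1.16 ± 0.07 for hsp-4.

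Of 35 proteasome genes 21 rose and 7 fell, with a median of 0.21, turning to 7 higher and 22 lower on deposited values. Without array 3 of 3 days or without array 2 of 11 days, 4 fell. pbs-2 rose by 0.71 ± 0.07, with -0.85 ± 0.06 against the HF-HQ controls, and rpn-6.2 fell by 2.43 ± 0.19, with -1.87 ± 0.25 there. The autophagy receptor gene sqst-1 read 7.69, 7.59 and 7.66 at 3 days and 9.75, 9.92 and 9.86 at 11 days, a rise of 2.19 ± 0.06, and of 1.61 ± 0.07 against the HF-HQ controls. epg-2, an adaptor that feeds germ granule proteins to autophagy in embryos, rose by 3.88 ± 0.11 but stood at -0.04 ± 0.07 there. Of antioxidant genes, msra-1, which repairs oxidised methionine, fell by 4.62 ± 0.06, and the glutathione peroxidase gene gpx-7 fell by 4.28 ± 0.10. Both were lower than in the HF-HQ controls as well, at -1.68 ± 0.06 and -2.59 ± 0.06. The antioxidant list as a whole split into 9 higher and 16 lower of 29 (5 and 22 on deposited values), and into 18 higher and 7 lower against the HF-HQ controls.

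Genes of energy metabolism were lower in the older worms. Of 72 oxidative phosphorylation genes 47 fell and 10 rose, with a median of -0.37. The deposited values gave 65 lower and 4 higher, and the HF-HQ controls 34 lower and 18 higher with a median of -0.15. The copper chaperone gene cox-17 fell by 1.50 ± 0.05 and the ATP synthase gene asg-2 by 1.30 ± 0.05, and with the HF-HQ controls these were -0.61 ± 0.06 and -0.34 ± 0.06. Of 48 genes of fatty acid activation and beta-oxidation 31 fell and 12 rose, with a median of -0.73, and 15 fell at least 2-fold. Of the 48, 8 passed through the 3-day arrays only and so had to be lower, and 1 through the 11-day arrays only. Without a filter the median of the 64 such genes on the array was -0.35. The acyl-CoA dehydrogenase gene acdh-2 read 7.26, 7.03 and 7.27 at 3 days and 3.27, 3.41 and 3.79 at 11 days. Its fall by 3.70 ± 0.13 was also found against the HF-HQ controls, at -4.60 ± 0.19. The list as a whole was not lower there, with 18 genes higher, 19 lower and a median of -0.02. acdh-8 (-4.64 ± 0.05), acs-7 (-3.89 ± 0.05) and ech-9 (-3.15 ± 0.05) gave 0.18 ± 0.05, -0.47 ± 0.14 and 2.89 ± 0.11 in that comparison.

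Lipases went both ways, 12 higher and 8 lower of 21 tested (10 and 10 on deposited values). Of these 21, 4 passed through the 3-day and 4 through the 11-day arrays only and so had their direction set by the filter. lipl-1, a lysosomal lipase gene induced by fasting, read 2.47, 2.36 and 2.40 at 3 days and 7.24, 7.25 and 7.25 at 11 days. lipl-2 rose by 4.11 ± 0.06 and the fasting-induced lipase gene fil-1 by 4.33 ± 0.07, while lipl-4 fell by 3.33 ± 0.08. Each of these 4 genes lay under log2 5 at one age. The rises stood against the HF-HQ controls (1.77 ± 0.15, 3.71 ± 0.07 and 5.31 ± 0.07), whereas lipl-4 gave 0.13 ± 0.05. In sugar metabolism the pyruvate kinase gene pyk-2 fell by 2.87 ± 0.06 and the gluconeogenic gene pck-1 rose by 1.42 ± 0.08, with -0.99 ± 0.06 and 0.55 ± 0.07 against the HF-HQ controls. icl-1 of the glyoxylate cycle rose from 8.11, 7.93 and 7.99 to 9.14, 8.99 and 9.21 but gave -1.84 ± 0.07 against the HF-HQ controls. Cytosolic ribosomal protein genes barely moved: of 61 tested, 17 rose, 12 fell and 32 did not pass, with a median of 0.05 and none at 2-fold. rps-2 (0.55 ± 0.06) and rpl-11.2 (-0.53 ± 0.05) marked the ends, and rps-17 gave 0.02 ± 0.05. On deposited values 60 of the 61 were lower, by a median of -0.62.

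Cytochrome P450 genes, which oxidise lipids and foreign compounds, rose. cyp-14A3 read 2.18 in each array of 3 days and 8.37, 8.32 and 8.40 at 11 days, a change of 6.19 ± 0.05. cyp-34A9 rose by 4.63 ± 0.07, cyp-35B1 by 4.55 ± 0.06 and cyp-25A1 by 3.68 ± 0.10. Of 22 genes tested, of 73 on the array, 17 rose and 4 fell, with a median of 1.41, and 8 had passed through the 11-day arrays only. Without a filter 38 of the 73 were higher, 17 at least 2-fold, and 12 lower, where 30.8% of all genes were higher. The HF-HQ controls gave 15 higher and 6 lower, with 6.79 ± 0.05 for cyp-14A3, 3.64 ± 0.06 for cyp-34A9, 5.37 ± 0.06 for cyp-35B1 and 2.54 ± 0.10 for cyp-25A1.

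Conjugating enzymes changed in both directions. Of 30 UDP-glucuronosyltransferase genes tested 19 fell and 8 rose, with ugt-47 at -3.13 ± 0.06 and ugt-25 at 4.35 ± 0.11. Of 24 glutathione S-transferase genes 14 fell and 7 rose, with gst-28 at -4.70 ± 0.07 and gsto-1 at -3.67 ± 0.09. Of these lists 8 and 5 genes passed through the 3-day arrays only and had to be lower, and 5 and 1 through the 11-day arrays only. Against the HF-HQ controls these 4 genes had -2.80 ± 0.09, 2.87 ± 0.08, -2.70 ± 0.10 and -1.12 ± 0.09. The lists there split into 14 higher and 11 lower, and into 7 higher and 11 lower.

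Among the 12 largest rises 3 genes have no role given here, Y47H9C.1, C50F7.5 and C54C8.12. Y47H9C.1 read 2.24, 2.24 and 2.23 at 3 days and 9.35, 9.23 and 9.38 at 11 days. C50F7.5 rose by 6.54 ± 0.07 and C54C8.12 by 5.99 ± 0.08. All 3 rose also against the HF-HQ controls, by 7.97 ± 0.09, 7.02 ± 0.06 and 6.72 ± 0.08. By chromosome, genes at least 2-fold lower made up 22.7% of the 860 tested on X and 8.4% of the 1297 on III, and genes at least 2-fold higher 17.1% and 8.33%. All MSP genes tested lie on II (13) and IV (10).

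**Figure D4:**
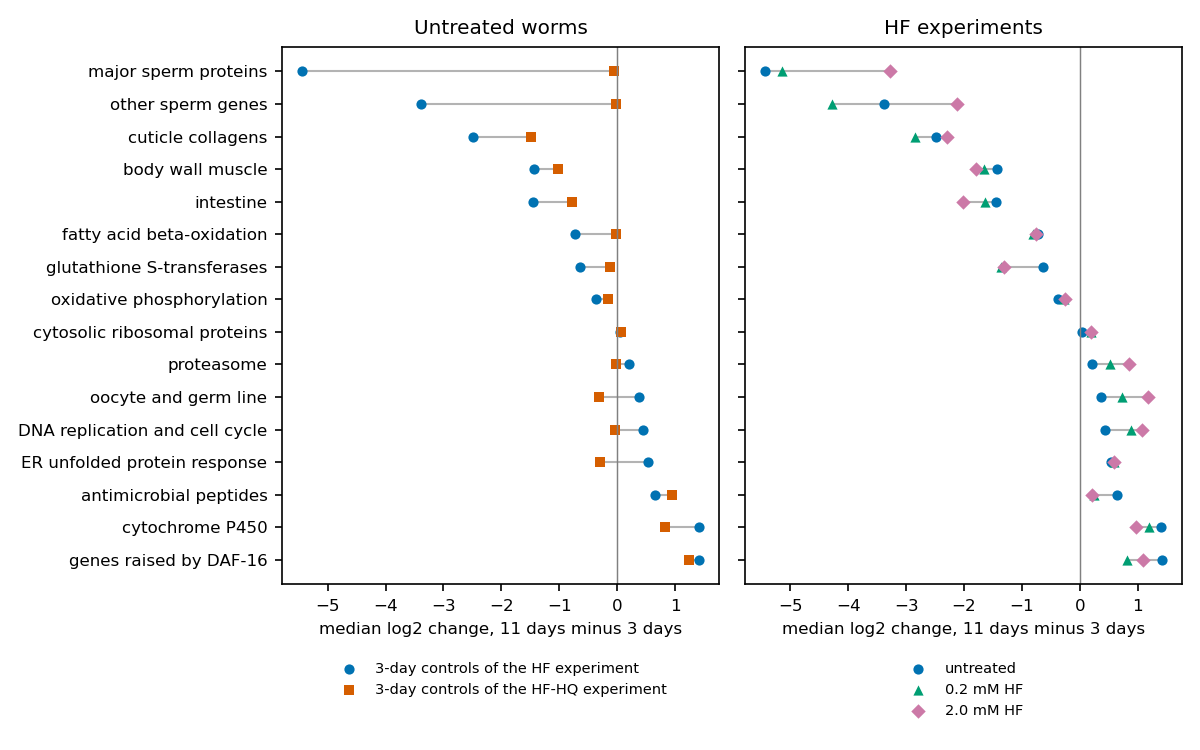
Median log2 change from 3 to 11 days of the tested members of 16 gene lists. The left panel gives untreated worms with either set of 3-day controls, which share the 11-day arrays, and the right panel gives untreated worms, 0.2 mM HF and 2.0 mM HF; the MSP median of -5.45 falls to -0.06 with the HF-HQ controls, while collagens, muscle and intestine stay below 0 and antimicrobial peptides, cytochrome P450 and DAF-16 targets above it.

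The same age difference was measured in worms on 0.2 and 2.0 mM HF, in arrays that the untreated comparison did not use. The doses share the split of ages with the untreated worms. Of the 2467 probe sets (25.5%) at least 2-fold changed in untreated worms, 2450 (99.3%) were called in the same direction at 0.2 mM and 3 in the opposite one. At 2.0 mM these were 2398 (97.2%) and 14. Of all 7636 probe sets called in untreated worms, 6614 (86.6%) had the same direction at 0.2 mM and 331 the opposite one. The numbers at 2.0 mM were 6179 (80.9%) and 648. Calls made up 87.2% of all probe sets tested at 0.2 mM and also at 2.0 mM, in either direction. The MSP median was -5.15 at 0.2 mM and -3.28 at 2.0 mM, and the collagen median -2.84 and -2.30. Germ line genes had medians of 0.72 and 1.17, with 41 of 42 genes higher at each dose, where 48.3% and 45.8% of all genes were.

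The size of the age change differed with treatment for many genes, by the interaction term of a limma fit to the 18 HF arrays. It was called for 4798 probe sets (49.6%) at 0.2 mM, 227 of them differing at least 2-fold, and for 6762 (70%) at 2.0 mM, 891 at least 2-fold. For msp-45 the age change was -6.65 in untreated worms, -6.29 at 0.2 mM and -4.30 at 2.0 mM. For abf-2 it was 8.24, 8.40 and 8.23, and for cnc-7 6.40, 5.36 and 4.08. nspe-1, of a nematode-specific peptide group, read 8.33, 8.19 and 8.29 at 3 days and 2.53, 2.60 and 2.62 at 11 days untreated, a change of -5.68 ± 0.06, while its age change was -1.95 at 0.2 mM and -5.44 at 2.0 mM. Against the HF-HQ controls nspe-1 fell by 2.68 ± 0.06.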

How the data were processed

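Log2 expression values per probe set had been deposited by the authors, made with GCRMA per the submitters' processing notes, which give no version. GCRMA corrects background, normalizes and summarises probes. Per the labels' protocols 200 ng of RNA with an integrity number of 9 or 10 were amplified. The 5' minus 3' log2 signal of the ubiquitin control was -2.98 to -2.92 at 3 days and -3.24 to -3.18 at 11 days. That of the GAPDH control overlapped between the ages, at -0.89 to -0.58 and -1.02 to -0.74. The members and gene lists were chosen with earlier results of these data known.

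The array holds 22625 probe sets, from which 77 controls were removed. The 6 arrays were quantile normalized over the other 22548, and the 9665 members were tested with limma 3.58.1 in R 4.3.3 (2-sided, Benjamini-Hochberg over all members). Of these 9218 matched 1 symbol of the platform annotation, 316 several and 131 none. Genes with over 1 tested probe set numbered 1637, of which 88 had calls in opposite directions. The number of arrays limits the precision.

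Named genes were a selection of the 12 largest rises and falls with ages that do not overlap (81.1% of probe sets did not), the strongest called changes of each list (4 at most), and a fixed set of yolk, insulin and stress genes. In data simulated for the comparison of 11 with 3 days on 9665 probe sets, 72 of 100 true changes of 0.5 and 99 of 100 of 1 were recovered, with 8 false among 179 calls. Only 200 probe sets changed there, as many up as down, and the simulated ages had no difference of scale. Errors from the scaling were therefore not covered. Alternatives were deposited values, median centring, 27-array quantiles, ranks, no filter, a filter at log2 7, a variance trend, all 18 HF arrays, a replicate block, the HF-HQ controls, a 2-fold threshold, each array left out, the mean over the probe sets of a gene and, chosen after seeing the data, level hybridization controls. Figures were drawn with matplotlib in Python 3.11.15.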

Additional observations from a re-analysis of the deposited data

Results flagged for a closer look

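For 34 of the 136 named genes the age change of treated worms differed by at least 2-fold from that of untreated worms. These were 15 genes at 0.2 mM HF and 28 at 2.0 mM, by the interaction term of the limma fit to 18 arrays. Of all 9665 probe sets, 227 (2.35%) and 891 (9.22%) differed by at least 2-fold at these doses. Most named genes were chosen for large age changes, so that these shares are not a like background. Values are differences of log2 changes, treated minus untreated, with their standard error. Sperm genes fell less at 2.0 mM, with 2.37 ± 0.12 for msp-45, 2.29 ± 0.20 for msp-152, 2.13 ± 0.11 for msp-50, 1.88 ± 0.18 for msp-74, 2.15 ± 0.13 for msp-63, 1.29 ± 0.18 for nspd-4 and 1.15 ± 0.18 for spe-11. At 0.2 mM ssp-35 fell more, with -1.37 ± 0.06. Of genes that fell in untreated worms, the difference at 2.0 mM was 1.07 ± 0.13 for F27C1.1, 2.15 ± 0.11 for F58A6.9, 1.15 ± 0.13 for cyc-2.2, 1.11 ± 0.12 for col-139, 1.50 ± 0.22 for rpn-6.2, 1.49 ± 0.09 for acdh-8, -1.28 ± 0.16 for acdh-2 and -1.06 ± 0.10 for dim-1. At 0.2 mM it was 3.78 ± 0.13 for nspe-1, -1.14 ± 0.13 for F27C1.1 and -1.05 ± 0.10 for dim-1.

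Among genes that rose in untreated worms, the germ line genes lin-41 and fog-1 rose more at 2.0 mM, with 1.11 ± 0.11 and 1.11 ± 0.17. clec-266 rose more at 0.2 mM, with 1.46 ± 0.11. Smaller rises at both doses, 0.2 mM given first, were found for his-24 (-1.72 ± 0.10 and -1.12 ± 0.10), sdz-28 (-1.51 ± 0.18 and -2.27 ± 0.18), sdz-25 (-1.22 ± 0.29 and -2.09 ± 0.29), cnc-7 (-1.04 ± 0.10 and -2.33 ± 0.10), ilys-3 (-3.31 ± 0.11 and -2.34 ± 0.11), tts-1 (-1.46 ± 0.09 and -2.31 ± 0.09) and fat-5 (-1.18 ± 0.13 and -1.70 ± 0.13). Smaller rises at 0.2 mM alone passed 2-fold for clec-174 (-1.28 ± 0.14), pck-1 (-1.23 ± 0.10) and icl-1 (-1.02 ± 0.12). At 2.0 mM alone they did so for lipl-1 (-2.69 ± 0.18), cyp-34A9 (-1.87 ± 0.18), ugt-25 (-1.93 ± 0.20) and C50F7.5 (-1.55 ± 0.10). Over all probe sets, differences of any size were called for 4798 at 0.2 mM and 6762 at 2.0 mM.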

How the results depend on the processing

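The call counts, 7636 probe sets with 4028 higher and 3608 lower, became 13564 (7137 and 6427) with no filter and 2467 (1163 and 1304) with a 2-fold threshold. Scaling moved the split: it was 2725 higher and 5290 lower on deposited values (34% higher), 3514 and 4313 with centred arrays (44.9%), and 2557 and 4979 with level hybridization controls (33.9%), an alternative chosen after seeing the data. Leaving out 1 array gave 7194 to 7677 calls, 3802 to 4037 higher and 3392 to 3640 lower. Deviations from the age means correlated at 0.172, 0.100 and 0.057 between same-numbered arrays and at -0.129 to 0.044 between differently numbered ones. With 3 arrays of each age this cannot settle whether the numbers pair the samples. A replicate block gave 7659 calls. Of 136 named genes 108 were tested in all 17 settings, and 76 of these had the same call in each. The other 28 were not tested with the filter at log2 7, and 18 had the same call in the rest. With the HF-HQ controls the sign of 26 turned, and the cause was not tested. Of these 18 were called there and 8 were not, namely spe-11, puf-7, cdc-25.2, sdz-25, dpy-14, vit-5, atf-6 and epg-2. The values were msp-50 1.07, msp-74 0.92, ssp-35 0.19, spe-11 0.15, puf-7 -0.068, top-2 -0.85, cdc-25.2 -0.023, sdz-28 -0.60, sdz-25 -0.13, col-129 0.48, dpy-14 -0.078, elt-2 1.13, vit-5 -0.079, clec-70 0.32, asp-12 1.65, dod-24 0.93, sgk-1 1.14, hsp-12.3 2.11, atf-6 -0.10, dnj-7 -0.82, pbs-2 -0.85, epg-2 -0.042, acdh-8 0.18, ech-9 2.89, lipl-4 0.13 and icl-1 -1.84. vit-5 also turned on deposited values (-0.54), with centred arrays (-0.35) and with level hybridization controls (-0.53), and rps-2 on deposited values and with level hybridization controls (-0.092 and -0.087). Age and batch cannot be told apart, and 3 arrays for each age limit the precision.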
